A study of Homo sapiens with 18 samples.

Results

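Integrin and laminin genes were followed through the TGFβ-induced epithelial-to-mesenchymal transition (EMT) of 3 human lung cancer cell lines. The genes were taken by symbol, in a choice made with earlier results of these data known. Every integrin α subunit on the arrays was taken (ITGA followed by a number or letter). So were every integrin β subunit (ITGB followed by a digit) and every laminin chain (LAMA, LAMB or LAMC followed by a digit). This gave 38 of the 19849 genes measured, namely 18 integrin α subunits, 8 integrin β subunits and 12 laminin chains (5 α, 4 β and 3 γ chains). None of the 38 was filtered out before testing, and each was read by 1 Affymetrix probe set.

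The study compared non-small cell lung cancer cells before and after prolonged exposure to TGFβ, a cytokine that drives EMT, with 3 arrays in each of 6 groups. The parental groups were A549, HCC827 (EGFR-mutant) and NCI-H358 cells, for which the labels name no treatment. The mesenchymal groups were the same lines kept in 2 ng/ml TGFβ for 3 weeks, with TGFβ withdrawn on the day before lysis, and all 6 groups grew in the same serum-containing, glutamine-supplemented medium. The labels give the same duration for each line, whereas the culture methods allow a longer exposure for HCC827 and NCI-H358 than for A549, so line and duration cannot be told apart. The arrays of a group are separate samples made at the same time, and the labels do not say whether the mesenchymal samples came from separate derivations, so the p values measure the spread between such samples. Levels are given as log2 of the RMA-normalised signal, a change is the mean of the mesenchymal arrays minus the mean of the parental arrays, and a gene was called when its limma p value, adjusted over all 19849 genes, was below 0.05 and its fold change exceeded 2. Group means below 4.67, the 25th percentile of all group means, were taken as dim, and the size of a fold change against a dim group is uncertain, since no detection calls were used.

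Integrins are heterodimers of an α and a β subunit that hold cells to the extracellular matrix and signal from it. By their main ligands they fall into laminin-binding receptors (the α subunits ITGA3, ITGA6 and ITGA7, and ITGB4, which pairs with ITGA6 in hemidesmosomes), collagen-binding receptors (ITGA1, ITGA2, ITGA10 and ITGA11), receptors for the RGD motif of fibronectin, vitronectin and latent TGFβ (ITGA5, ITGA8, ITGAV, ITGA2B and the β subunits 3, 5, 6 and 8) and receptors used mainly by leukocytes. ITGB1 is the shared partner of most of the α subunits. Laminins are secreted trimers of an α, a β and a γ chain, and they are the main adhesive proteins of the basement membrane on which lung epithelium sits. Loss of basement membrane contact and a turn to fibronectin and interstitial collagen are textbook features of EMT.

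The state of the cells was checked with marker genes. Of 5 carcinoma markers, 3 were called lower in A549 (EPCAM, KRT19 and CDH1) and all 5 in HCC827 and in NCI-H358. Of 4 markers of the mesenchymal state, 1 was called higher in A549 (CDH2) and 3 in each of the other lines (VIM, CDH2 and ZEB1). Short of 2-fold, VIM, ZEB1 and SNAI1 were also higher in A549, at log2 fold changes of 0.79, 0.79 and 0.52. Their limma adjusted p values were 0.000132, 2.52e-05 and 0.00202. KRT8 and KRT18 changed there by -0.54 and -0.34. SNAI1 was higher by 0.85 in HCC827 and 0.92 in NCI-H358, also short of 2-fold. Of 4 fibroblast markers, LUM rose in all 3 lines, and PDGFRA, DCN and THY1 were called in none. Short of 2-fold, PDGFRA, DCN and THY1 were higher in A549, at 0.75, 0.45 and 0.38 (limma adjusted p = 5.64e-05, 0.0425 and 0.0273). PDGFRA was also higher in NCI-H358, at 0.79 (adjusted p = 3.42e-05), and DCN in HCC827, at 0.56 (adjusted p = 0.0123). THY1 had -0.20 in HCC827 (adjusted p = 0.261), and PDGFRA was dim in all 6 groups. Of 4 endothelial markers KDR rose in NCI-H358, and of 5 leukocyte markers CD14 fell in A549, with no other call in either list. The part of other cells in the results below was not tested. In cultures read as a whole, fewer cells of a type and less RNA per cell cannot be told apart. Array medians ran from 6.31 to 6.47, and the SD of the log2 difference between arrays over all genes was 0.163 to 0.282 within groups and 0.719 to 0.896 between the states of a line.

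Upon EMT, 12 of the 38 genes were called in A549, 7 higher and 5 lower, where 8.02% of all genes were called (4.15% higher and 3.87% lower). In HCC827 the count was 10, 3 higher and 7 lower, beside 11.5% of all genes (4.89% higher and 6.58% lower). In NCI-H358 it was also 10, 2 higher and 8 lower, beside 9.38% of all genes (3.96% higher and 5.42% lower). The share of members called was therefore above the background in each line, at 12, 10 and 10 of 38. In all, 17 of the 38 changed in at least 1 line and 21 in none, beside 19.4% of all genes changed in at least 1 line. At the stricter thresholds of 1e-05 for the adjusted p and 5-fold for the change, 7 members passed for A549, 4 for HCC827 and 3 for NCI-H358, where 1.9%, 2.95% and 2.17% of all genes did. In at least 1 line 11 members passed them, beside 5.4% of all genes. With no fold threshold, 25, 21 and 19 members had an adjusted p below 0.05 in A549, HCC827 and NCI-H358, beside 43.4%, 45.8% and 41.4% of all genes.

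Changes shared by all 3 lines were few, with 3 of the 38 genes called in 1 direction throughout, beside 1.67% of all genes. The integrin subunit ITGB3 rose in each line, where 0.761% of all genes rose in all 3, and the laminin α chains LAMA3 and LAMA5 fell in each, where 0.907% of all genes fell in all 3. A further 4 members, ITGA2, ITGB5 and ITGB6 among them, rose in 1 line and fell in another, which 0.937% of all genes did. Between HCC827 and NCI-H358, 7 members changed in the same direction (4.54% of all genes), namely ITGA5 and ITGB3, which rose, and ITGB2, ITGB4, ITGB6, LAMA3 and LAMA5, which fell. In A549 alone 4 members were called, ITGA1, ITGA11, LAMA4 and ITGAM, beside 3.38% of all genes.

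**Figure D1:**
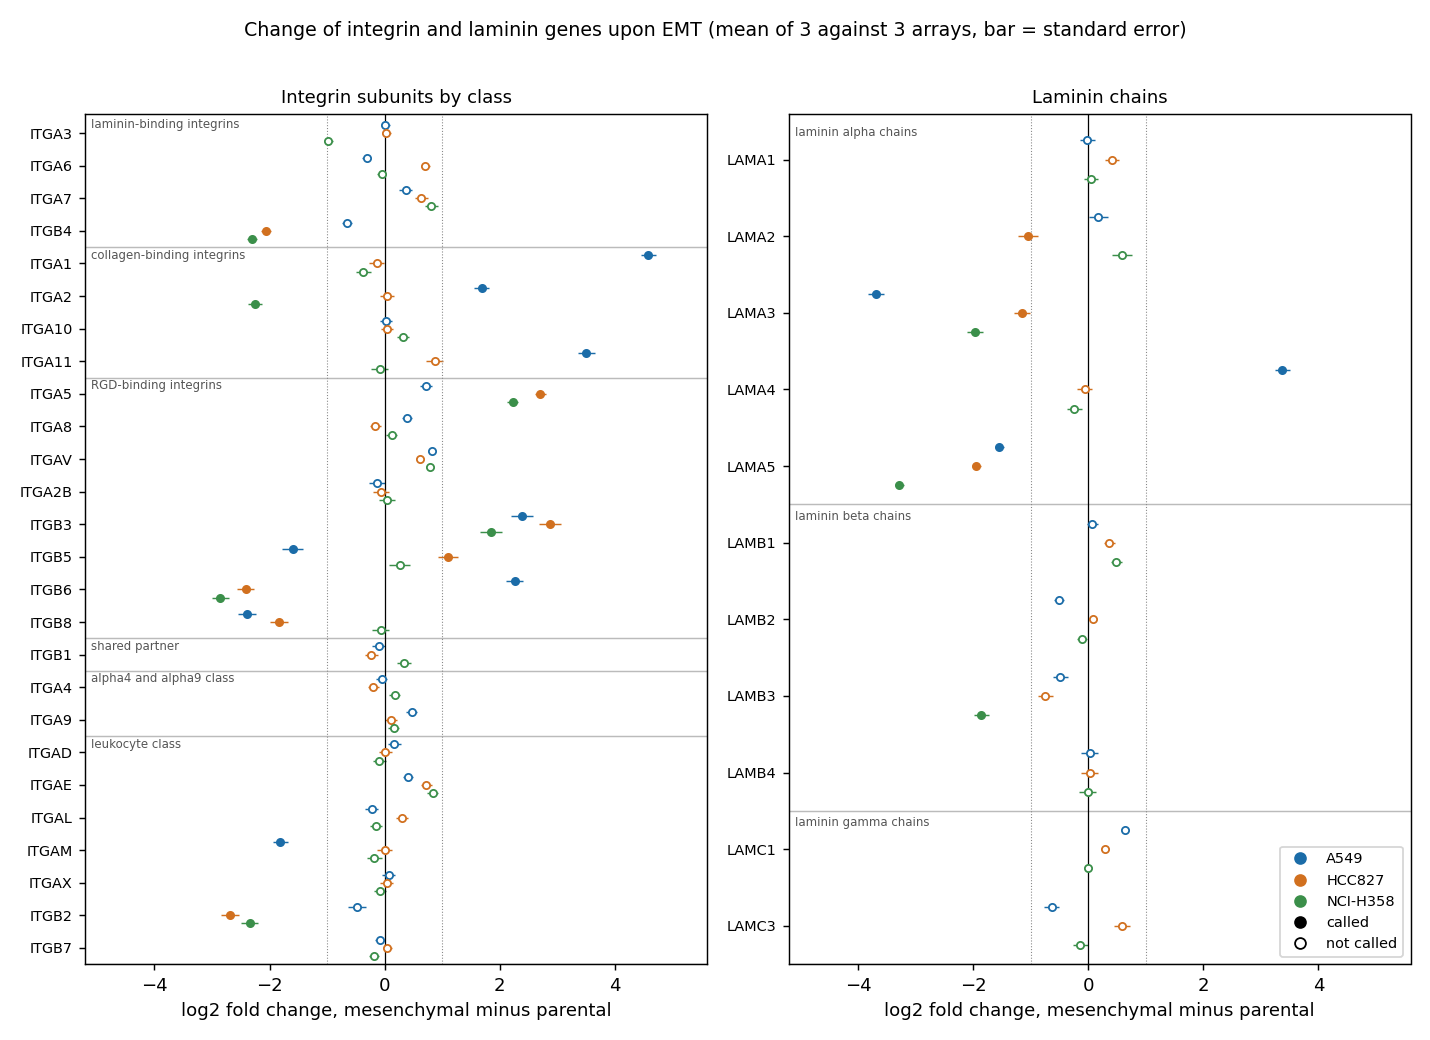
Log2 fold change of 37 of the 38 genes upon EMT (horizontal axis, mesenchymal minus parental), with 26 integrin subunits by class on the left and 11 laminin chains on the right. Points are differences between means of 3 arrays, bars are standard errors, filled points passed the call and dotted lines mark a 2-fold change. ITGB3 lies to the right and LAMA3 and LAMA5 to the left in all 3 lines, whereas ITGA1, ITGA11 and LAMA4 stand out in A549 alone.

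Laminin α chains decide which receptors a laminin can bind. Of the 12 laminin chains 6 were called in at least 1 line, 4 of them α chains, beside 19.4% of all genes. LAMA3 encodes the α chain of the epithelial laminin to which hemidesmosomes bind. LAMA3 read 8.45, 8.26 and 8.17 in the parental A549 arrays and 4.30, 4.49 and 5.01 in the mesenchymal ones. For HCC827, LAMA3 gave 9.34, 9.14 and 9.21 before and 8.08, 7.91 and 8.25 after EMT. For NCI-H358, LAMA3 gave 10.57, 10.44 and 10.47 before and 8.60, 8.51 and 8.47 after. In each line all 3 mesenchymal arrays lay below all 3 parental arrays, and the mesenchymal A549 arrays were the lowest of the 18. The log2 fold change was -3.69 (SE 0.14, adjusted p = 8.96e-13) for A549, -1.15 (SE 0.14, adjusted p = 2.07e-06) for HCC827 and -1.96 (SE 0.14, adjusted p = 3.29e-09) for NCI-H358, corresponding to decreases of 12.9-fold, 2.22-fold and 3.90-fold. The mesenchymal A549 mean of 4.60 was dim, so the size of the LAMA3 fall in that line is uncertain. The fall was smaller in HCC827 than in A549, with a difference of the log2 change of 2.54 (SE 0.20, adjusted p = 1.57e-08) by limma.

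LAMA5, the α chain of the laminin most widespread in adult epithelial basement membranes, also fell in each line. LAMA5 read 10.59, 10.38 and 10.42 in parental A549 arrays and 8.82, 9.07 and 8.86 in mesenchymal ones. For HCC827, LAMA5 gave 10.90, 10.75 and 10.70 before and 8.84, 8.81 and 8.86 after. For NCI-H358, LAMA5 gave 10.91, 10.97 and 10.99 before and 7.66, 7.65 and 7.71 after. The parental arrays of the 3 lines lay close together, and no mesenchymal array reached any parental array. As a log2 fold change this was -1.55 (SE 0.08, adjusted p = 3.47e-11) for A549, -1.95 (SE 0.08, adjusted p = 1.35e-12) for HCC827 and -3.29 (SE 0.08, adjusted p = 3.77e-15) for NCI-H358. The largest decrease of LAMA5 was in NCI-H358, 9.75-fold, and the smallest, 2.92-fold, in A549, the line in which LAMA3 fell most. The log2 change of LAMA5 in NCI-H358 was lower than that in A549 by a tested difference of -1.74 (SE 0.11, adjusted p = 9.96e-10).

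The promoters of LAMA3 and LAMA5 are shown because these were the laminin genes that fell in every line. The RefSeq promoter windows (GRCh38.p14) lie at chr18:23872770-23873019 (+ strand) for LAMA3 and at chr20:62367313-62367562 (- strand) for LAMA5, and each holds the 250 bases before the transcription start, 5′ to 3′ on the gene's strand. Capitals mark matches on either strand to the E-box CAGGTG, which ZEB and SNAIL family repressors can bind, to the AP-1 motif TGANTCA and to the SMAD element CAGAC. An E-box begins 73 bases before the LAMA3 start and overlaps one of 2 AP-1 matches, at 69 and 125 bases, with CAGAC at 87 and 229 bases. In the LAMA5 window an E-box begins 201 bases before the start. Among 35116 windows of this length 17.5% hold the E-box, 6.57% the AP-1 motif and 38.0% the CAGAC element, which is short. For 26 of the 38 genes 33 windows were matched, of which 8 hold the E-box, 2 the AP-1 motif (those of LAMA3 and LAMB3) and 13 CAGAC. These matches describe the sequence and are not evidence of binding.
LAMA3: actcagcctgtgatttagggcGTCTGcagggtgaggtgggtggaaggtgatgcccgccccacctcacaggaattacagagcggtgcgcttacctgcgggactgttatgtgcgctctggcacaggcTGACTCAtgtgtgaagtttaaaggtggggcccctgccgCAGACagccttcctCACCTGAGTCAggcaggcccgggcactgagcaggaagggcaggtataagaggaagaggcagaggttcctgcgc
LAMA5: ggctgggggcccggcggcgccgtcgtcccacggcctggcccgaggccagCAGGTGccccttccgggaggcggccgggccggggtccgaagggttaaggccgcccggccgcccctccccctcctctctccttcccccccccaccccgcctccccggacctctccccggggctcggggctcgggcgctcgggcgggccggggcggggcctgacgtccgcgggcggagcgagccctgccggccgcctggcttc

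LAMA4, the α chain of laminins made by mesenchymal and endothelial cells, rose in A549 alone. LAMA4 read 4.33, 4.31 and 4.63 in parental A549 arrays and 7.88, 7.85 and 7.66 in mesenchymal ones. For HCC827, LAMA4 gave 3.23, 3.46 and 3.29 before and 3.13, 3.09 and 3.56 after. For NCI-H358, LAMA4 gave 3.68, 3.74 and 3.96 before and 3.69, 3.55 and 3.40 after. Only in A549 did the groups separate, and in the other lines they overlapped at low levels. Parental A549 arrays were dim too, with a mean of 4.42, so the size of the rise there is uncertain. The log2 fold change was 3.37 (SE 0.13, adjusted p = 1.11e-12) in A549, a 10.4-fold increase, against -0.06 (SE 0.13, adjusted p = 0.742) in HCC827 and -0.24 (SE 0.13, adjusted p = 0.156) in NCI-H358. The change in A549 exceeded that in each of the other lines in the test of the difference itself, with -3.44 (SE 0.18, adjusted p = 1.37e-10) for HCC827 minus A549 and -3.61 (SE 0.18, adjusted p = 6.99e-11) for NCI-H358 minus A549. KDR, 1 of the endothelial markers, was not called in A549, where its mean level was 3.82 before and 4.04 after. LUM, 1 of the fibroblast markers, rose there with LAMA4, from 3.14 to 5.29. The fibroblast markers PDGFRA, DCN and THY1 were not called there, at log2 fold changes of 0.75, 0.45 and 0.38. The part of other cells in the rise of LAMA4 was not tested.

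LAMB3, the β chain that joins LAMA3 in the epithelial laminin, was called lower in NCI-H358 alone, at a log2 fold change of -1.86 (SE 0.13, adjusted p = 3.08e-09). Its mean there went from 10.43 ± 0.06 to 8.58 ± 0.09 (SD, n = 3). LAMB3 had log2 fold changes of -0.48 in A549 and -0.75 in HCC827, below the 2-fold threshold.

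LAMC1, the γ chain shared by most laminins, was called in no line. LAMC1 read 9.69, 9.71 and 9.71 in parental A549 arrays and 10.30, 10.36 and 10.37 in mesenchymal ones. For HCC827, LAMC1 gave 10.18, 10.11 and 10.10 before and 10.39, 10.31 and 10.55 after. For NCI-H358, LAMC1 gave 10.58, 10.65 and 10.75 before and 10.69, 10.63 and 10.65 after. The groups separated in A549 and HCC827, by less than 2-fold, and overlapped in NCI-H358. The log2 fold change was 0.64 (SE 0.07, adjusted p = 5.05e-07) in A549 and 0.29 (SE 0.07, adjusted p = 0.00150) in HCC827, and in NCI-H358 its 95% interval -0.14 to 0.14 spanned 0.

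LAMB1, the β chain that pairs with LAMC1, was likewise called in no line, with mean levels of 10.56 and 10.63 for A549, 10.87 and 11.24 for HCC827, and 10.75 and 11.24 for NCI-H358 before and after EMT. Its log2 fold changes, from 0.07 to 0.49, did not reach 2-fold. Of the other chains, LAMA2, the α chain of muscle laminin, was called lower in HCC827, at -1.05 (SE 0.17, adjusted p = 6.31e-05). That call lay at the 2-fold limit and was lost when HCC827 parental array 1 or HCC827 mesenchymal array 1 was left out, each giving -0.94, while the log2 change of LAMA2 was 0.18 in A549 and 0.59 in NCI-H358. LAMA1, LAMB2, LAMB4 and LAMC3 were called in no line, with log2 fold changes between -0.64 and 0.58, both of these for LAMC3.

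**Figure D2:**
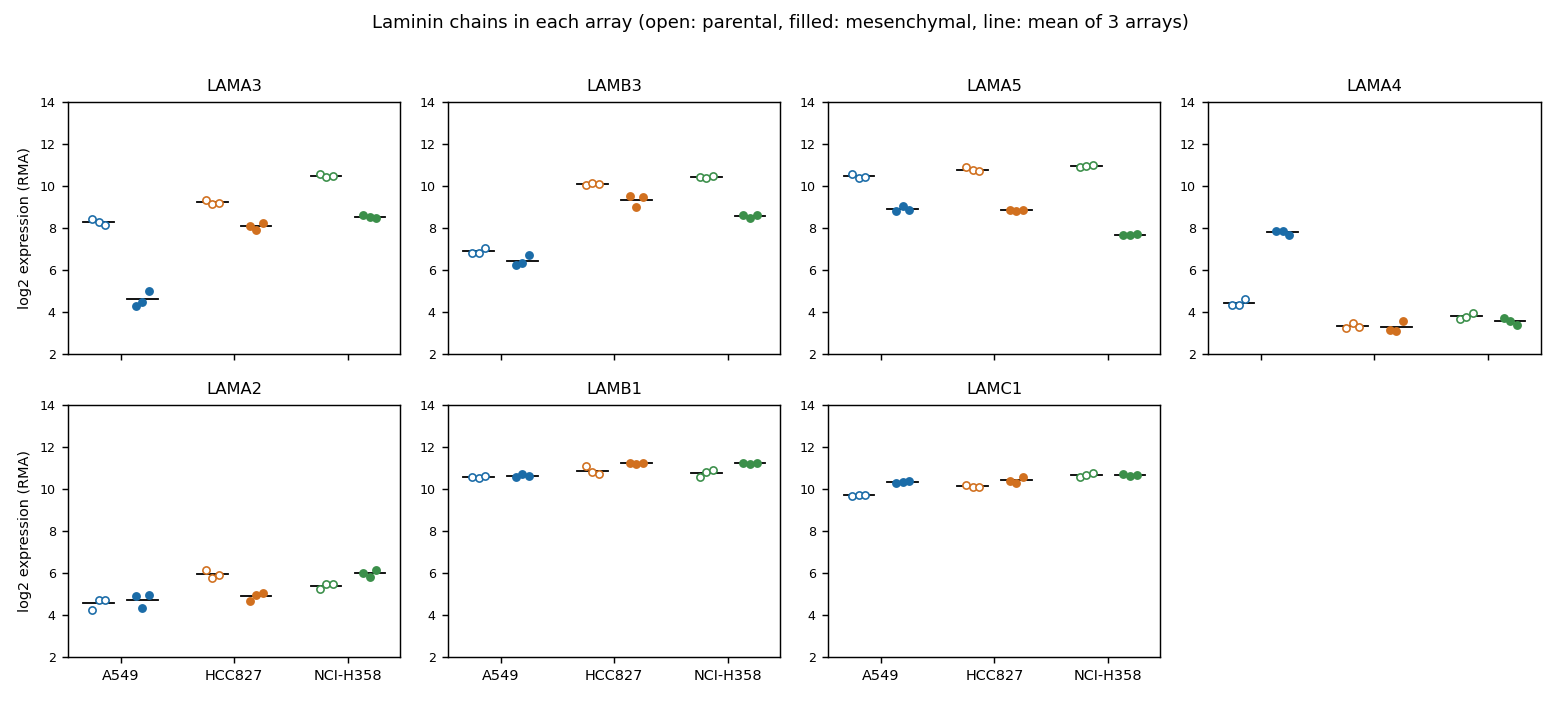
Log2 RMA level of 7 laminin chains in each of the 18 arrays, by cell line, with open points for parental arrays, filled points for mesenchymal arrays and a line at the mean of 3 arrays. LAMA3 and LAMA5 are lower after EMT in every line, LAMA4 is higher in A549 alone, and LAMB1 and LAMC1 stay within a 2-fold change.

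Most laminin-binding integrins were called in no line, beside 8.02%, 11.5% and 9.38% of all genes called in A549, HCC827 and NCI-H358. Of the 4 genes of this class, 0 were called in A549, where by limma 3 had an unadjusted p below 0.05 but no 2-fold change, and ITGB4 was the single call in HCC827 and in NCI-H358. The class median log2 fold change was -0.15 for A549, 0.33 for HCC827 and -0.51 for NCI-H358, where the median of all genes was -0.021, 0.0051 and 0.015. ITGB4, the hemidesmosome subunit, had mean levels of 7.76 ± 0.11 and 7.10 ± 0.10 in A549 before and after EMT, 8.43 ± 0.09 and 6.36 ± 0.13 for HCC827, and 10.31 ± 0.12 and 8.01 ± 0.07 in NCI-H358 (SD, n = 3 each). It fell by 4.19-fold in HCC827 and 4.94-fold in NCI-H358, with log2 fold changes of -2.07 (SE 0.09, adjusted p = 3.52e-12) and -2.30 (SE 0.09, adjusted p = 1.09e-12). In A549 the log2 value was -0.66 (SE 0.09, adjusted p = 8.69e-06), short of 2-fold, and the change in NCI-H358 minus that in A549 was -1.65 (SE 0.12, adjusted p = 1.12e-08).

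ITGA6, the α subunit that pairs with ITGB4 or ITGB1, was called in no line, with log2 fold changes of -0.31, 0.71 and -0.05 in A549, HCC827 and NCI-H358. ITGA3, the partner of ITGB1 in the main epithelial receptor for laminins with the LAMA3 or LAMA5 chain, had values of 0.01 in A549 and 0.03 in HCC827. In NCI-H358 ITGA3 stood just under the threshold at -0.98 (SE 0.08, adjusted p = 3.59e-08). ITGA7, best known from muscle, had an adjusted p below 0.05 in every line with log2 fold changes of 0.37, 0.64 and 0.81, all under 2-fold. In HCC827 and in NCI-H358 LAMA3 and LAMA5 thus fell together with ITGB4, and no α subunit of the laminin-binding class was called.

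Collagen-binding integrins changed mainly in A549, where 3 of 4 rose, beside 4.15% of all genes, and the class median log2 fold change was 2.59. In HCC827, 0 of 4 were called, beside 11.5% of all genes, with a median of 0.045. By limma, however, 1 of the 4, ITGA11, had an unadjusted p below 0.05 in that line. In NCI-H358, 1 of 4 fell, beside 5.42% of all genes, and the median was -0.23. ITGA1, a receptor for network-forming basement membrane collagen, read 2.74, 2.91 and 2.68 in parental A549 arrays and 7.26, 7.53 and 7.29 in mesenchymal ones. For HCC827, ITGA1 gave 3.75, 3.35 and 3.30 before and 3.22, 3.21 and 3.57 after. For NCI-H358, ITGA1 gave 4.48, 4.82 and 4.43 before and 4.15, 4.17 and 4.30 after. The parental A549 arrays lay at the low end of the scale, with a mean above that of only 2.20% of genes, and the mesenchymal A549 arrays stood above all other arrays of the series. ITGA1 rose in A549 with a log2 fold change of 4.58 (SE 0.13, adjusted p = 3.28e-14) against parental arrays so dim that its size is uncertain. The value was -0.14 (SE 0.13, adjusted p = 0.456) in HCC827 and -0.37 (SE 0.13, adjusted p = 0.0338) in NCI-H358, and the change of each differed from that of A549, by -4.72 (SE 0.19, adjusted p = 4.68e-12) and -4.95 (SE 0.19, adjusted p = 2.03e-12).

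ITGA11, a receptor for fibrillar collagen that is typical of fibroblasts, read 6.25, 6.24 and 6.47 in parental A549 arrays and 10.00, 9.72 and 9.75 in mesenchymal ones. For HCC827, ITGA11 gave 5.76, 5.65 and 6.12 before and 6.41, 6.65 and 7.07 after. For NCI-H358, ITGA11 gave 5.70, 5.93 and 5.93 before and 5.69, 5.88 and 5.74 after. The mesenchymal arrays stood clear of the parental ones in A549 and, by a smaller distance, in HCC827, and the groups overlapped in NCI-H358. The log2 fold change was 3.50 (SE 0.15, adjusted p = 4.36e-12) in A549, an 11.3-fold rise, and 0.87 (SE 0.15, adjusted p = 9.56e-05) in HCC827, short of the 2-fold threshold. Beside ITGA11, the fibroblast marker LUM had mean levels of 3.14 and 5.29 in A549 before and after EMT. Its means were 5.03 and 8.96 for HCC827, and 8.22 and 10.37 for NCI-H358. The other fibroblast markers, PDGFRA, DCN and THY1, were called in no line. Taking the lines in the same order, PDGFRA had log2 fold changes of 0.75, 0.22 and 0.79. DCN had 0.45, 0.56 and 0.16, and THY1 had 0.38, -0.20 and 0.22.

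ITGA2, the epithelial and platelet receptor for fibrillar collagen, moved in opposite directions in A549 and NCI-H358. ITGA2 read 9.15, 9.42 and 9.65 in parental A549 arrays and 11.03, 11.24 and 11.01 in mesenchymal ones. For HCC827, ITGA2 gave 10.19, 10.05 and 9.96 before and 10.09, 10.11 and 10.14 after. For NCI-H358, ITGA2 gave 9.70, 9.91 and 10.17 before and 7.64, 7.79 and 7.60 after. All mesenchymal arrays were above the parental ones in A549 and below them in NCI-H358, and the groups overlapped in HCC827. It rose 3.21-fold in A549 and fell 4.75-fold in NCI-H358, with log2 fold changes of 1.68 (SE 0.12, adjusted p = 6.07e-09) and -2.25 (SE 0.12, adjusted p = 1.22e-10). The change in NCI-H358 minus that in A549 was -3.93 (SE 0.17, adjusted p = 1.50e-11). The last of the class, ITGA10, a collagen receptor of cartilage, had log2 fold changes of 0.02 to 0.32 and was called in no line.

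Among the integrin classes, RGD-binding integrins held the largest share of called genes in HCC827 and in NCI-H358, with 2 of 8 higher and 2 lower in A549, 3 higher and 2 lower in HCC827 and 2 higher and 1 lower in NCI-H358. Of all genes, 8.02%, 11.5% and 9.38% were called in these lines. The class median log2 fold change was 0.55, 0.28 and 0.19 in these lines, and that of HCC827 was 0.62 without the dim members. ITGB3, which pairs with ITGAV in the classical vitronectin receptor, read 4.02, 4.92 and 4.20 in parental A549 arrays and 6.70, 6.78 and 6.82 in mesenchymal ones. For HCC827, ITGB3 gave 4.12, 4.55 and 4.38 before and 6.95, 7.24 and 7.47 after. For NCI-H358, ITGB3 gave 4.88, 4.52 and 4.72 before and 6.77, 6.41 and 6.49 after. Every mesenchymal array was above every parental array of the 3 lines, and the parental lines started from similar, low levels. ITGB3 means of 4.38 in parental A549 and 4.35 in parental HCC827 arrays were dim, so the size of its rise there is uncertain. Its log2 fold change was 2.39 (SE 0.19, adjusted p = 1.83e-08) for A549, 2.87 (SE 0.19, adjusted p = 1.17e-09) for HCC827 and 1.85 (SE 0.19, adjusted p = 3.96e-07) for NCI-H358, or 5.22-fold, 7.31-fold and 3.60-fold. Between HCC827 and NCI-H358 the change differed by -1.02 (SE 0.27, adjusted p = 0.00601), close to the 2-fold limit, and 5 of 18 fits with an array left out did not call that difference.

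ITGA5, which joins ITGB1 to form the main fibronectin receptor, rose in HCC827 and NCI-H358. ITGA5 read 7.14, 6.89 and 7.22 in parental A549 arrays and 7.83, 7.74 and 7.83 in mesenchymal ones. For HCC827, ITGA5 gave 7.62, 7.63 and 7.55 before and 10.21, 10.17 and 10.55 after. For NCI-H358, ITGA5 gave 6.09, 6.12 and 6.25 before and 8.39, 8.33 and 8.42 after. No mesenchymal array overlapped the parental arrays of its own line, in A549 included. The rise was 6.52-fold in HCC827 and 4.68-fold in NCI-H358, with log2 fold changes of 2.70 (SE 0.10, adjusted p = 4.52e-13) and 2.23 (SE 0.10, adjusted p = 6.57e-12). In A549 the value was 0.72 (SE 0.10, adjusted p = 1.10e-05), which passed the adjusted p but not 2-fold, and it was smaller than in HCC827 by a tested difference of 1.99 (SE 0.14, adjusted p = 4.24e-09).

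ITGAV, the α subunit that the β subunits 3, 5, 6 and 8 share, stayed below 2-fold in each line. ITGAV read 12.19, 12.32 and 12.29 in parental A549 arrays and 13.13, 13.09 and 13.03 in mesenchymal ones. For HCC827, ITGAV gave 12.22, 12.12 and 12.00 before and 12.71, 12.72 and 12.77 after. For NCI-H358, ITGAV gave 11.83, 11.91 and 12.07 before and 12.70, 12.74 and 12.70 after. All groups separated, with the mesenchymal arrays above. ITGAV had log2 fold changes of 0.82 (SE 0.07, adjusted p = 5.78e-08) for A549, 0.62 (SE 0.07, adjusted p = 1.32e-06) for HCC827 and 0.78 (SE 0.07, adjusted p = 9.10e-08) for NCI-H358, so that with a threshold of 1.5-fold ITGAV would have been called in all 3 lines. Each of its 4 β partners changed by over 2-fold in at least 1 line, in directions that were not the same for all.

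ITGB6, an epithelial subunit that with ITGAV binds and activates latent TGFβ, rose in A549 and fell in the other lines. ITGB6 read 6.78, 6.84 and 6.44 in parental A549 arrays and 9.10, 8.96 and 8.78 in mesenchymal ones. For HCC827, ITGB6 gave 10.99, 10.68 and 10.59 before and 8.45, 8.08 and 8.49 after. For NCI-H358, ITGB6 gave 10.18, 10.36 and 10.61 before and 7.70, 7.50 and 7.38 after. The parental arrays of A549 were the lowest of the 18 and those of HCC827 and NCI-H358 the highest, and the mesenchymal arrays of all lines lay in between. ITGB6 rose 4.80-fold in A549, with a log2 fold change of 2.26 (SE 0.15, adjusted p = 1.59e-09), and fell 5.34-fold in HCC827, with -2.42 (SE 0.15, adjusted p = 4.60e-10), and 7.24-fold in NCI-H358, with -2.86 (SE 0.15, adjusted p = 6.58e-11). The changes differed from that of A549 by -4.68 (SE 0.21, adjusted p = 1.90e-11) in HCC827 and -5.12 (SE 0.21, adjusted p = 5.79e-12) in NCI-H358. Its RefSeq promoter window (GRCh38.p14, chr2:160200273-160200522 (- strand)) is shown for this opposite movement, with the same length, orientation and capitals as those of the laminin genes, and it holds an E-box that begins 70 bases before the start.
ITGB6: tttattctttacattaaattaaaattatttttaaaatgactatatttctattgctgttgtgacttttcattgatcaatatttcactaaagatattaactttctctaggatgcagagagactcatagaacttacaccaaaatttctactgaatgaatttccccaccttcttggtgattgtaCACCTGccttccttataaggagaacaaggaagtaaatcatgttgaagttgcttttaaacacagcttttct

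ITGB8, which with ITGAV also activates latent TGFβ, fell in A549 and HCC827. ITGB8 read 5.63, 5.55 and 5.30 in parental A549 arrays and 3.33, 2.98 and 2.99 in mesenchymal ones. For HCC827, ITGB8 gave 8.74, 8.12 and 8.25 before and 6.57, 6.25 and 6.76 after. For NCI-H358, ITGB8 gave 7.48, 7.50 and 7.46 before and 7.41, 7.26 and 7.56 after. The groups separated in A549 and HCC827 and overlapped in NCI-H358. ITGB8 fell with a log2 fold change of -2.39 (SE 0.16, adjusted p = 1.31e-09) in A549, where the mesenchymal arrays were so dim that its size is uncertain, and of -1.84 (SE 0.16, adjusted p = 2.63e-08) in HCC827. In NCI-H358 the value was -0.07 (SE 0.16, adjusted p = 0.779), and it differed from that of A549 by 2.32 (SE 0.22, adjusted p = 1.99e-07). In A549, ITGB6 and ITGB8 thus moved in opposite directions, and in HCC827 both fell.

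ITGB5, the subunit of a further vitronectin receptor with ITGAV, fell in A549 and rose in HCC827. ITGB5 read 8.80, 8.47 and 8.52 in parental A549 arrays and 6.95, 7.11 and 6.95 in mesenchymal ones. For HCC827, ITGB5 gave 6.48, 6.02 and 6.15 before and 7.20, 7.33 and 7.42 after. For NCI-H358, ITGB5 gave 5.57, 5.96 and 6.54 before and 6.24, 6.18 and 6.44 after. Parental A549 arrays were the highest, and the groups overlapped in NCI-H358. ITGB5 fell 3.02-fold in A549 and rose 2.15-fold in HCC827, with log2 fold changes of -1.60 (SE 0.18, adjusted p = 1.41e-06) and 1.10 (SE 0.18, adjusted p = 6.64e-05), and the difference between these changes was 2.70 (SE 0.26, adjusted p = 1.94e-07). ITGA8, a receptor for nephronectin, and ITGA2B, the platelet subunit, were called in no line, with log2 fold changes between -0.16 and 0.39, both of these for ITGA8.

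**Figure D3:**
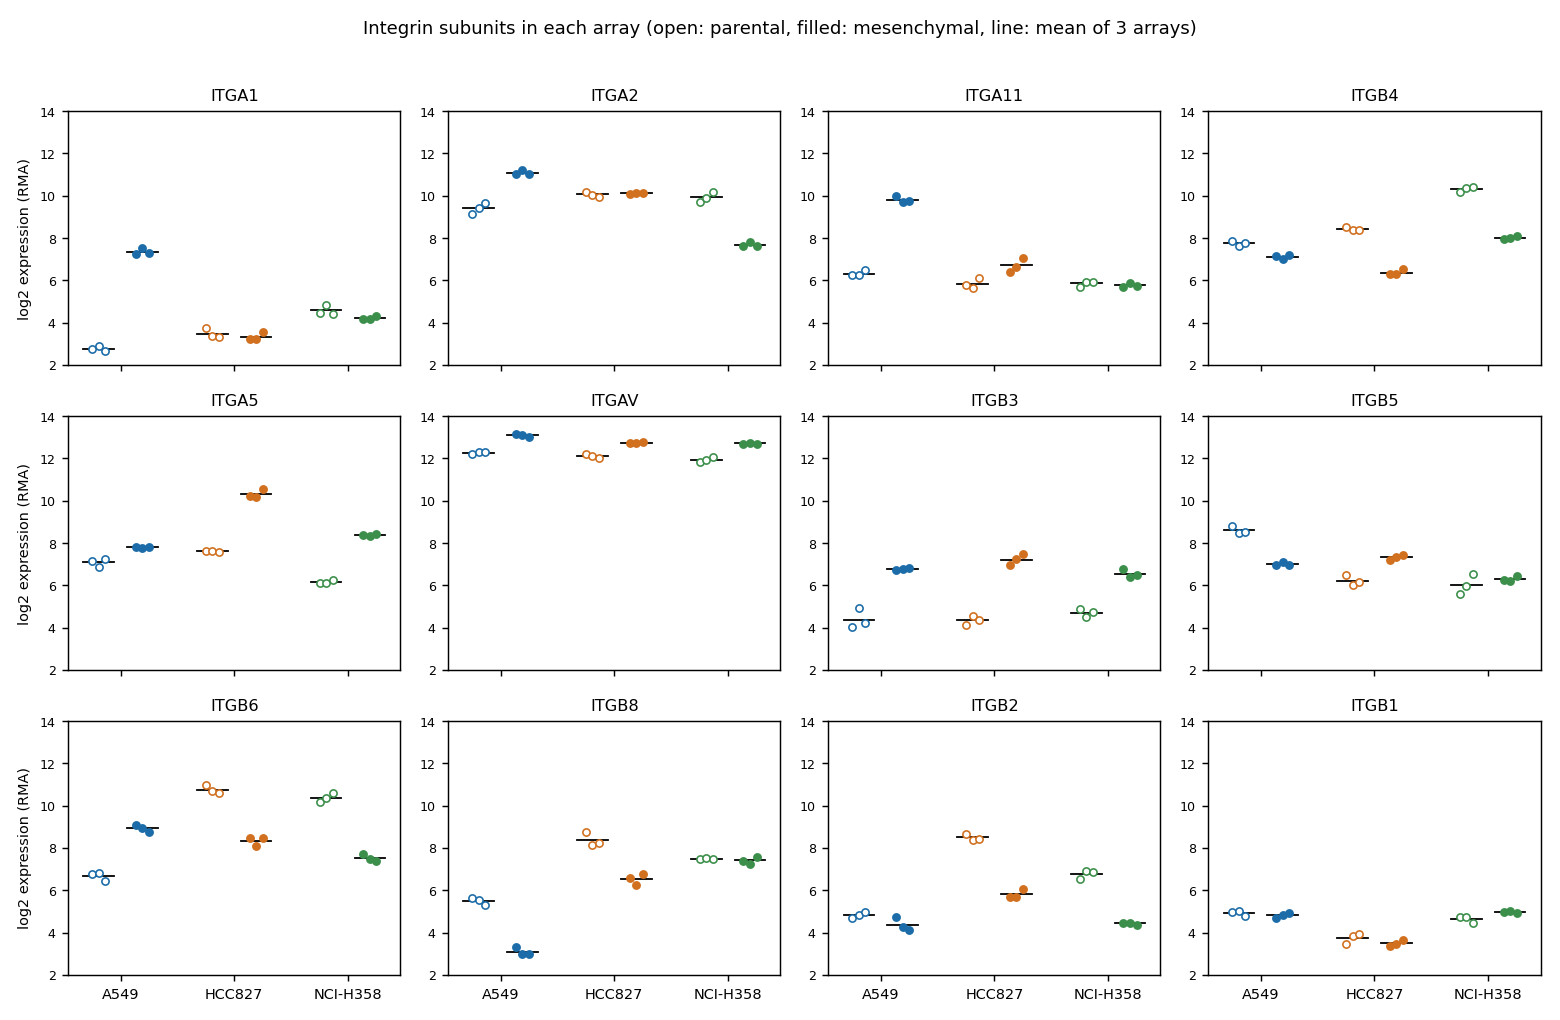
Log2 RMA level of 12 integrin subunits in each of the 18 arrays, by cell line, with open points for parental arrays, filled points for mesenchymal arrays and a line at the mean of 3 arrays. ITGB3 is higher after EMT in every line, ITGA1 and ITGA11 rise most in A549, and ITGB6 rises in A549 and falls in HCC827 and NCI-H358, so that its mesenchymal arrays lie between the parental extremes.

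ITGB1, the shared partner, was called in no line, but its probe set read low in every group. ITGB1 read 4.98, 5.03 and 4.78 in parental A549 arrays and 4.70, 4.85 and 4.93 in mesenchymal ones. For HCC827, ITGB1 gave 3.47, 3.82 and 3.91 before and 3.37, 3.47 and 3.65 after. For NCI-H358, ITGB1 gave 4.74, 4.76 and 4.45 before and 4.98, 5.02 and 4.95 after. All 18 values lay below the array medians, and parental and mesenchymal arrays overlapped in A549 and HCC827. The log2 fold change was -0.10 (SE 0.12, adjusted p = 0.526), -0.23 (SE 0.12, adjusted p = 0.122) and 0.33 (SE 0.12, adjusted p = 0.0303) in A549, HCC827 and NCI-H358. How the deposited probe set was chosen is not given, and other ITGB1 probe sets were not analysed here, so these values limit what can be said of ITGB1.

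Among the 7 subunits used mainly by leukocytes, ITGB2 and ITGAM were called, beside 19.4% of all genes called in at least 1 line. ITGB2, the β subunit of the leukocyte adhesion receptors, read 4.68, 4.84 and 4.99 in parental A549 arrays and 4.72, 4.24 and 4.11 in mesenchymal ones. For HCC827, ITGB2 gave 8.67, 8.38 and 8.44 before and 5.69, 5.69 and 6.04 after. For NCI-H358, ITGB2 gave 6.53, 6.93 and 6.88 before and 4.48, 4.46 and 4.37 after. Parental HCC827 arrays were the highest and parental NCI-H358 arrays the next, whereas the groups overlapped in A549. In NCI-H358 the mesenchymal mean of 4.43 was dim, so the size of the change there is uncertain. ITGB2 fell 6.44-fold in HCC827 and 5.08-fold in NCI-H358, at log2 fold changes of -2.69 (SE 0.15, adjusted p = 1.13e-10) and -2.34 (SE 0.15, adjusted p = 8.63e-10). PTPRC, the defining marker of leukocytes, stayed between 2.83 and 3.18 as a mean level in all 6 groups, near the bottom of the scale, and was called in no line. CD3E was also called in no line, with means of 5.39 to 5.61. CD68, a macrophage marker, was highest in parental HCC827 cells, as ITGB2 was, with means of 7.55 before and 7.16 after EMT and a log2 difference of -0.39 (adjusted p = 0.0200) that was not called. In NCI-H358 cells CD68 had means of 6.00 and 6.31, and the part of other cells in the fall of ITGB2 was not tested. The α subunits that pair with ITGB2 in leukocytes, ITGAD, ITGAL, ITGAM and ITGAX, had mean levels of 2.89 to 5.62, below the array medians, in the 6 groups.

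ITGAM, the α subunit of a myeloid complement receptor, had a mean of 5.38 ± 0.17 in parental and 3.56 ± 0.18 in mesenchymal A549 cells (SD, n = 3 each), and fell with a log2 fold change of -1.82 (SE 0.13, adjusted p = 5.26e-09). The mesenchymal A549 mean was dim, so the size of this fall is uncertain. CD14, a monocyte marker that is also made by some epithelial cells, fell in the same line, from 5.76 to 4.40. The part of other cells in this was not tested. ITGAE, which pairs with ITGB7 and binds E-cadherin, had an adjusted p below 0.05 in every line with log2 fold changes of 0.41, 0.72 and 0.83, none above 2-fold. ITGAD, ITGAL, ITGAX and ITGB7 were called in no line and their log2 fold changes lay between -0.22 and 0.30, both for ITGAL. The 2 subunits of the remaining class, ITGA4 and ITGA9, had mean levels of 2.54 to 3.63 in the 6 groups and were called in no line.

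The lines differed in these genes before TGFβ was added. Of the 38, 16 differed by over 2-fold between at least 1 pair of parental lines, beside 30.7% of all genes, and 20 differed so between at least 1 pair of mesenchymal lines, beside 29.6%. The pairs among parental lines gave 10 members for HCC827 against A549 (18.8% of all genes), 12 for NCI-H358 against A549 (20.4%) and 7 for NCI-H358 against HCC827 (15.2%). ITGB6 was higher than in A549 by 4.07 (SE 0.15, adjusted p = 2.35e-13) on the log2 scale in parental HCC827 and by 3.70 (SE 0.15, adjusted p = 7.03e-13) in parental NCI-H358. LAMB3 was higher than in A549 by 3.18 (SE 0.13, adjusted p = 1.06e-12) and 3.52 (SE 0.13, adjusted p = 2.15e-13) in the same lines. ITGB5 was lower, by differences of -2.38 (SE 0.18, adjusted p = 3.74e-09) and -2.58 (SE 0.18, adjusted p = 1.16e-09). Parental A549 cells therefore had the lowest ITGB6 and LAMB3 and the highest ITGB5 of the 3 lines.

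After EMT the order of the lines changed for some of these genes. Among mesenchymal lines 11 members differed between HCC827 and A549 (17.2% of all genes), 13 between NCI-H358 and A549 (19.8%) and 10 between NCI-H358 and HCC827 (15.2%). The ITGB6 difference was -0.61 (SE 0.15, adjusted p = 0.00209) for mesenchymal HCC827 minus A549 and -1.42 (SE 0.15, adjusted p = 2.28e-07) for NCI-H358 minus A549, so that A549, the lowest parental line, became the highest mesenchymal one. ITGA1, also lowest in A549 among parental and highest among mesenchymal lines, differed by -4.03 (SE 0.13, adjusted p = 6.68e-14) and -3.15 (SE 0.13, adjusted p = 1.32e-12). LAMA4, highest in A549 in both states, differed by -4.53 (SE 0.13, adjusted p = 9.05e-15) and -4.25 (SE 0.13, adjusted p = 1.63e-14). Mesenchymal HCC827 and NCI-H358 means were dim for ITGA1 (3.33 and 4.21) and LAMA4 (3.26 and 3.55), so the sizes of these differences are uncertain. The change itself differed between at least 1 pair of lines for 20 of the 38 genes, beside 21.5% of all genes. By pair the counts were 15 for HCC827 against A549 (13.4% of all genes), 15 for NCI-H358 against A549 (12.7%) and 8 for NCI-H358 against HCC827 (11%). By class, the change differed in 3 of 4 laminin-binding, 3 of 4 collagen-binding and 5 of 8 RGD-binding integrins. The pairs share groups, so these counts are not independent of each other.

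Genes that work with integrins and laminins were read from lists of 39 further genes. Upon EMT 9 rose and 3 fell in A549, 10 rose and 3 fell in HCC827, and 6 rose and 5 fell in NCI-H358, where 8.02%, 11.5% and 9.38% of all genes were called in the 3 lines in that order. The share of all genes that rose was 4.15%, 4.89% and 3.96%. Of the 7 ligand genes of RGD-binding integrins, FN1, which encodes fibronectin, rose in all lines, at 3.11 (SE 0.21, adjusted p = 1.57e-09), 3.98 (SE 0.21, adjusted p = 4.38e-11) and 1.99 (SE 0.21, adjusted p = 4.10e-07) on the log2 scale in A549, HCC827 and NCI-H358. FBN1, which encodes the microfibril protein fibrillin, likewise rose in all lines, at 1.71, 4.47 and 2.65. SPP1, which encodes osteopontin, rose in A549 at 1.03 (SE 0.23, adjusted p = 0.00169) and fell in HCC827 and NCI-H358 at -4.25 (SE 0.23, adjusted p = 1.05e-10) and -3.11 (SE 0.23, adjusted p = 7.74e-09), the same directions as ITGB6. TGFB1 rose in HCC827 and NCI-H358 at 1.63 and 2.24, and LTBP1, which binds latent TGFβ, rose in A549 at 1.18. VTN and TGFB3 were called in no line.

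Partners of laminin in the basement membrane rose where they were called in A549 and HCC827. NID1, which links laminin to collagen, rose at 1.41 (SE 0.14, adjusted p = 3.60e-07) in A549 and 3.45 (SE 0.14, adjusted p = 2.55e-12) in HCC827 on the log2 scale. Its paralogue NID2 rose in HCC827 at 3.63 (SE 0.15, adjusted p = 3.94e-12). COL4A1, a chain of basement membrane collagen, rose at 2.27 (SE 0.16, adjusted p = 2.68e-09) and 2.70 (SE 0.16, adjusted p = 1.93e-10) in these lines, and COL4A2 rose with it at 1.80 and 1.92. Parental HCC827 means of NID1 and NID2, 3.27 and 3.83, were dim, so the sizes of those rises are uncertain. HSPG2, which encodes perlecan, was lower in HCC827 at -0.44 (limma adjusted p = 0.00211), short of 2-fold. In NCI-H358 NID1, NID2, COL4A1 and COL4A2 were not called, and HSPG2 fell at -1.69. There NID1 had means of 2.52 and 2.51 before and after EMT, NID2 3.72 and 3.48, and COL4A1 4.65 and 4.30, all dim. COL4A2 had 4.39 and 5.22. The fall of LAMA3 and LAMA5 in A549 and HCC827 thus stood beside higher NID1 and COL4A1. In NCI-H358 NID1 and COL4A1 were not called and stayed dim in both states.

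Of the 4 hemidesmosome and tetraspanin genes, DST, whose epithelial product ties ITGB4 to keratin, fell in all lines, at -2.37 (SE 0.10, adjusted p = 3.09e-12), -1.59 (SE 0.10, adjusted p = 4.33e-10) and -1.96 (SE 0.10, adjusted p = 3.54e-11) on the log2 scale in A549, HCC827 and NCI-H358. In A549 the mesenchymal mean of DST, 3.88, was dim, so the size of its fall there is uncertain. COL17A1, a transmembrane hemidesmosome collagen, fell in HCC827 at -1.26, and PLEC and CD151 were called in no line. Among other laminin receptors, DAG1 fell in NCI-H358 at -1.32, and BCAM and RPSA were called in no line. Of the 19 cytoplasmic partners of integrins, 9 were called in at least 1 line, beside 19.4% of all genes. The tensin TNS1 rose in A549 at 3.82 (SE 0.20, adjusted p = 5.74e-11) and its relative TNS3 fell there at -2.94 (SE 0.06, adjusted p = 3.98e-16). TLN2 and the kindlin FERMT2, which bind integrin β tails, rose in HCC827 at 2.23 and 1.77 and in NCI-H358 at 2.16 and 1.69. FERMT1 rose in A549 at 1.38, LIMS1 in HCC827 at 1.58 and PARVA in NCI-H358 at 1.37, whereas PARVB fell in A549 at -1.14 and TNS4 in NCI-H358 at -2.07. LIMS1 had a dim parental mean of 4.33 in HCC827. The other 10, TLN1, FERMT3, ILK, LIMS2, PTK2, PXN, VCL, BCAR1, ZYX and ITGB1BP1, were called in no line.

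**Figure D4:**
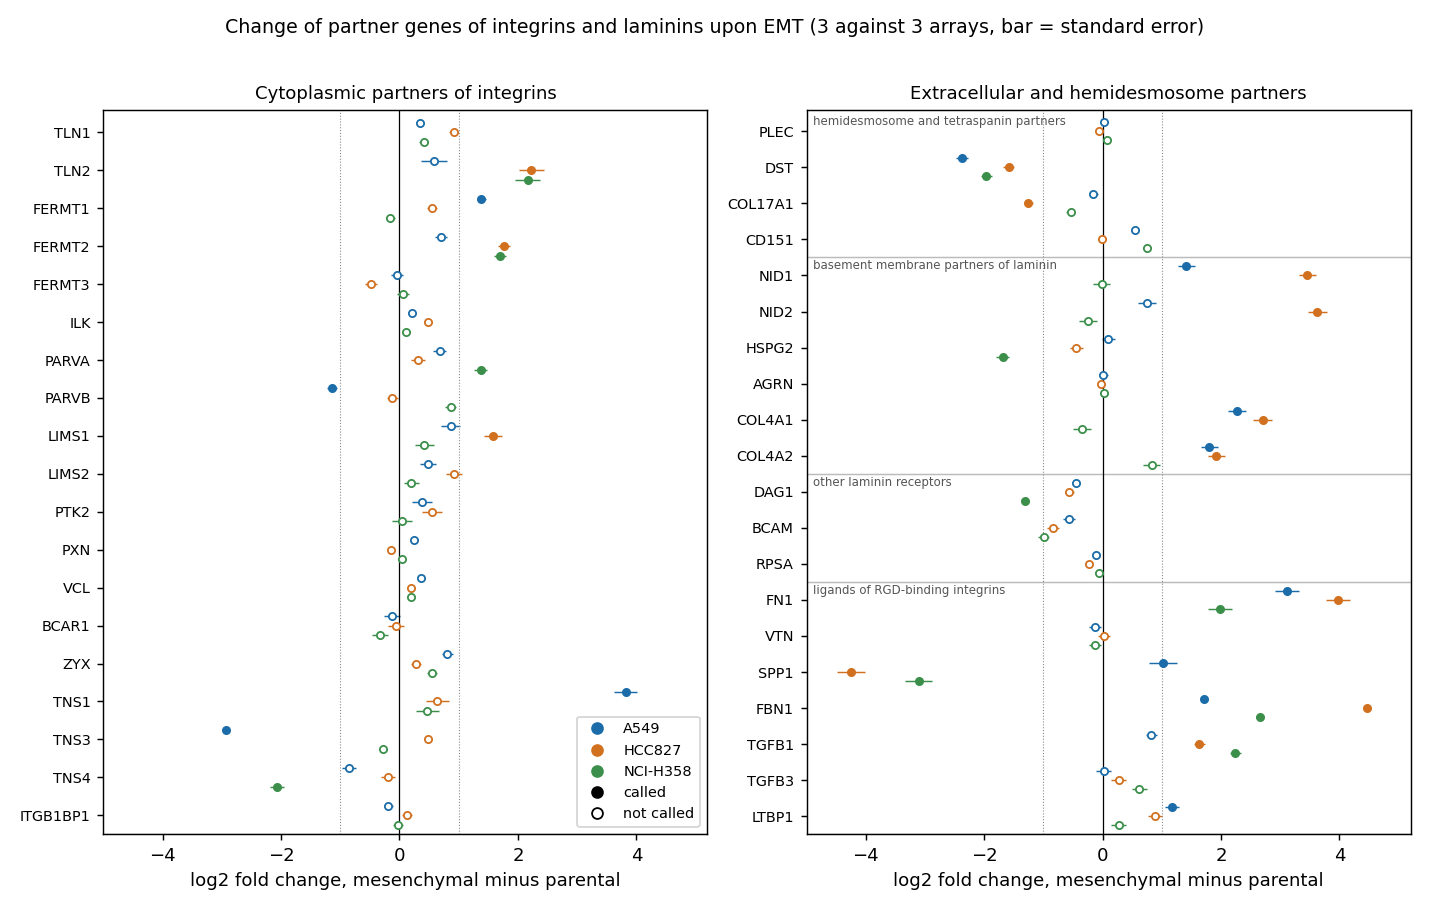
Log2 fold change upon EMT (horizontal axis, mesenchymal minus parental) of 39 genes that act with integrins or laminins, grouped by role, with bars for the standard error, filled points for called values and dotted lines at a 2-fold change. FN1 and FBN1 lie to the right and DST to the left in all 3 lines, and SPP1 lies on opposite sides in A549 and in the other lines.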

How the data were processed

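RNA of parental and TGFβ-induced mesenchymal A549, HCC827 and NCI-H358 cells, 18 samples, was hybridised to Affymetrix U133 Plus 2.0 arrays. The authors normalised the arrays by RMA, which corrects background, equalises the signal distributions and summarises probes, and deposited log2 values of 1 probe set for each gene. Detection calls, the rule by which a probe set was kept and a genome build were not given in the sources used here. RMA compresses differences of dim probe sets, and equalising arrays hides any shift common to all genes. Columns were matched to samples by title, and 0 columns were left over.

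All 19849 genes were fitted with limma 3.58.1 in R 4.3.3 (lmFit, eBayes), with 6 groups, 18 arrays and no covariate. A gene was called above 2-fold with a p value below 0.05 after Benjamini-Hochberg adjustment. The paper's stricter thresholds, 1e-05 and 5-fold, were an alternative. Parental lines, mesenchymal lines and the changes of the lines were compared as contrasts of that fit. Arrays have no sequencing depth, so 3 arrays per group limit the precision, and 0.1 is the smallest two-sided p of an exact permutation test with 3 arrays a side.

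Members, classes and partner lists were chosen with earlier results of these data known. Array values were given for members called in all 3 lines in 1 direction, past the stricter thresholds in any line or called in opposite directions, and for ITGB1, ITGAV and LAMC1. Partner genes were named when called in all lines in 1 direction or past the stricter thresholds. ITGB4, LAMB3, LAMA2 and ITGAM, as well as the other named partners, fall outside this rule and were chosen after their values were seen. Promoter windows came from RefSeq (GRCh38.p14). All 38 gene IDs were found in RefSeq.

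The fit was tested on simulated data for A549 with 19849 genes. Of 67 genes changed 1.5-fold, 67 changed 3-fold and 66 changed 6-fold, 1, 67 and 66 were called, with 0 false calls. A call needs a fold change above 2, so this outcome follows largely from that threshold. It does not measure the false calls of the adjusted p alone. Alternatives were other thresholds, separate fits, an intensity trend, median centring, a dim-probe filter, the methods' t-test and arrays left out in turn. Other probe sets of these genes were not analysed here. Counts cover all 38 members, but 1 member is not reported here singly. Figures were drawn with matplotlib 3.10.9.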

Additional observations from a re-analysis of the deposited data

Results flagged for a closer look

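The change upon EMT differed between cell lines for 20 of the 38 genes (limma contrast of the changes, adjusted p below 0.05 and a difference above 1 on the log2 scale), beside 21.5% of all genes. For 19 of them the largest difference between a pair of lines is given on the log2 scale, and the same arrays enter several pairs. The change in NCI-H358 was lower than that in A549 for ITGB6 (-5.12), ITGA1 (-4.95), ITGA2 (-3.93), LAMA4 (-3.61), ITGA11 (-3.59), LAMA5 (-1.74), ITGB4 (-1.65) and LAMB3 (-1.37), and higher for ITGB8 (2.32). The change in HCC827 was higher than that in A549 for ITGB5 (2.70), LAMA3 (2.54), ITGA5 (1.99), ITGAM (1.82), LAMC3 (1.22) and ITGA6 (1.01), and lower for ITGB2 (-2.21). Between NCI-H358 and HCC827 the difference was 1.64 for LAMA2, -1.02 for ITGB3 and -1.01 for ITGA3. Those of ITGA3, ITGA6 and ITGB3 lay at the 2-fold limit and were not called in 6, 4 and 5 of the 18 fits that each left out 1 array. No cause of these differences was tested.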

How the results depend on the processing

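At thresholds of 1e-05 for the adjusted p and 5-fold for the change, the counts of members changed became 7 for A549, 4 for HCC827 and 3 for NCI-H358, and 0 in all 3 lines by limma, beside 0.242% of all genes, where 10 members (12.1% of all genes) had an unadjusted p below 0.05 in 1 direction in all lines. At these thresholds 7 members differed between parental lines (8.86% of all genes), 8 between mesenchymal lines (8.24%) and 8 in their change (5.23%). At 1.5-fold, 16 members were called in HCC827 (22.2% of all genes) and 6 in all 3 lines (3.72% of all genes, ITGA5, ITGAV and ITGB3 higher, ITGB4, LAMA3 and LAMA5 lower). The other 179 of 188 recomputed counts stayed within 1.5 times those given above, among them 12, 10 and 10 members by the methods' t-test, adjusted. In fits without 1 array the counts were 12 to 12 for A549, 9 to 11 for HCC827, 10 to 11 for NCI-H358, 3 to 3 in all lines, 15 to 16 between parental lines, 19 to 20 between mesenchymal lines and 18 to 20 for the change.

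Of 1440 recomputed log2 fold changes of single genes, 1419 kept their direction and side of the threshold. Among called values, LAMA2 in HCC827 was lost at -0.99 with arrays centred on their medians and at -0.94 with parental array 1 of all lines left out together, a set whose sample numbering stands apart from that of the other samples. ITGA11 in HCC827 was gained, at 1.01 and 1.02, with HCC827 parental array 3 or mesenchymal array 1 left out. The other changes were of sign, in values that were not called. ITGA1 in HCC827 was 0.0047 with parental array 1 of all lines left out, and with arrays centred LAMA4 in HCC827 was 0.0011 and LAMC1 in NCI-H358 0.039. With single arrays left out, values ranged in HCC827 from -0.25 to 0.0047 for ITGA1, -0.0064 to 0.11 for ITGA2, -0.072 to 0.10 for ITGAM and -0.21 to 0.021 for LAMA4, and in NCI-H358 from -0.15 to 0.0021 for ITGB8 and -0.041 to 0.045 for LAMC1. The cause was not tested. The median of all laminin chains in A549, 0.0073, changed sign under other settings, and 38 of 252 recomputed class medians moved by more than the spread between replicates. The medians of laminin-binding integrins ranged from -0.17 to -0.080 in A549, 0.27 to 0.40 in HCC827 and -0.52 to -0.47 in NCI-H358, those of collagen-binding integrins from 2.51 to 2.69, 0.0094 to 0.11 and -0.29 to -0.15, and those of RGD-binding integrins from 0.49 to 0.72, 0.24 to 0.62 and 0.10 to 0.34.

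Centring moved the median of all genes by 0.039 to 0.068. Leaving out dim probe sets kept 32 of the 38 members and 16309 genes. No paired analysis was possible because the labels give the groups no shared replicate numbers. Probe sets with low signal, such as those of ITGB1, ITGA4, ITGA9 and LAMB4, limit what the arrays show of these genes.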
